A study of Mus musculus with 4 samples.

Results

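Molecular chaperones and heat shock proteins were followed as 69 genes, of 12698 genes listed in all 4 libraries of a single-cell study of mouse colon. They are the listed genes whose symbols begin with Hsp, Dnaja, Dnajb or Dnajc, or with Cct followed by a digit. The rule uses no level or ratio. By symbol they fall into 9 families, namely 3 HSP90 genes, 12 HSP70 and HSP110 genes, 2 HSP60 and HSP10 genes, 8 CCT genes, 4 DNAJA, 10 DNAJB and 25 DNAJC genes, 3 small heat shock proteins, and 2 other genes with an Hsp symbol. The symbol rule also takes in the pseudogene Dnajc19-ps. It leaves out chaperones with other symbols, such as Tcp1, the remaining subunit of the CCT ring. The study profiled intraepithelial lymphocytes, the T cells that lie within the gut epithelium, in droplets, reading the 3′ ends of transcripts from single cells. Live CD3+ cells with CD8α were sorted by a γδ or a β T cell receptor (the cell type label of the γδ sort names γ only), from the colon of mice labelled Tcf7KO or Tcf7WT. The 4 groups were TCRγδ Tcf7KO, TCRγδ Tcf7WT, TCRβ Tcf7KO and TCRβ Tcf7WT, with 1 library each. All 4 carry the strain label E8IcreTcf7fl/fl, a floxed Tcf7 with a Cre driven by the E8I enhancer of the Cd8a locus, active in mature CD8+ T cells, so the genotypes are told apart by the genotype label alone. Age, sex and the number of animals behind a library are not given in the sources used here.

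Chaperones bind proteins that are not yet folded or have lost their fold, and release them in a form that can fold, be transported or be degraded. HSP70 proteins do this in cycles of ATP hydrolysis that J-domain proteins (the DNAJ families) start and that HSP110 proteins help to reset, HSP90 acts later on kinases and receptors, and the closed chambers of HSP60 with HSP10 (mitochondria) and CCT (cytosol) enclose whole proteins. Heat and other protein-damaging stress activate heat shock factor 1, which binds heat shock elements in the promoters of the inducible members, while misfolded protein in the endoplasmic reticulum acts through the unfolded protein response on a separate set led by Hspa5 (BiP).

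Promoter windows of RefSeq (GRCm38.p6), from 250 bases before to 50 bases after an annotated transcript start, were found for 56 of the 69 members. Heat shock elements were searched as GAANNTTC or TTCNNGAA, each its own reverse complement, and as 3 units in GAANNTTCNNGAA or TTCNNGAANNTTC. Among 27025 genes with a window, 17% held the 2-unit element in any window, and 15.1% of the 32851 windows did. Among members, 15 of 56 held it, 26.8%, and so did 8 of the 9 genes of a list of 11 stress-inducible members that had a window (Hspa1a, Hspa1b, Hsph1, Dnaja1, Dnajb4, Hspb1, Hspd1 and Hspe1), 3 of the 7 CCT genes with a window and 1 of 9 endoplasmic reticulum members. The list of 11 also holds Dnajb1, Hsp90aa1 and Hspa8, although Hspa8 is a constitutive gene. The 3-unit element, which contains the 2-unit one, was in 0.662% of genes, 0.603% of windows and 4 members, Dnajb6, Hspd1, Hspe1 and Hsph1. The endoplasmic reticulum stress element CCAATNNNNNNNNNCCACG, searched on both strands, was in 0.137% of genes, 0.119% of windows and 3 members, Dnajc3, Hsp90b1 and Hspa5. The 6 windows below show the promoters of the genes on which the results turn, with the matched letters in capitals. The first 4 belong to the stress-inducible list and show heat shock elements, and the last 2 show the endoplasmic reticulum element.
Hspa1a (chr17:34972107-34972406, minus strand): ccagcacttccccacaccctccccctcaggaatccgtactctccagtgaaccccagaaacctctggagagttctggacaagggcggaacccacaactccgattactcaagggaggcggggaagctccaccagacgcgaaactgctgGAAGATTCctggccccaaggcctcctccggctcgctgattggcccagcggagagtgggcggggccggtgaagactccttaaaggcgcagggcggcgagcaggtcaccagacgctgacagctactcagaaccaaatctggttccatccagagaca
Hspa1b (chr17:34959189-34959488, minus strand): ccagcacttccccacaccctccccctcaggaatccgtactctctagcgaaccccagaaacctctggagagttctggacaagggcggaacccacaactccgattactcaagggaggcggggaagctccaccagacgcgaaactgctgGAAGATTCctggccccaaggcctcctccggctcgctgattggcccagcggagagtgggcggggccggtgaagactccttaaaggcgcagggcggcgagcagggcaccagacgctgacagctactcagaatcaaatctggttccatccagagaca
Hsph1 (chr5:149636287-149636586, minus strand): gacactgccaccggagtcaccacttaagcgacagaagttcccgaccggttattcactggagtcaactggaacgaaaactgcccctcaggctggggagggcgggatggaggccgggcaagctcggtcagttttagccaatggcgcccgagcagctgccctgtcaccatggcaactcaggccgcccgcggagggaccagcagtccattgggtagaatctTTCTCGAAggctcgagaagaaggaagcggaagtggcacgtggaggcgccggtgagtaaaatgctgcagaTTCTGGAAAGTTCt
Hspe1 (chr1:55087898-55088197, plus strand): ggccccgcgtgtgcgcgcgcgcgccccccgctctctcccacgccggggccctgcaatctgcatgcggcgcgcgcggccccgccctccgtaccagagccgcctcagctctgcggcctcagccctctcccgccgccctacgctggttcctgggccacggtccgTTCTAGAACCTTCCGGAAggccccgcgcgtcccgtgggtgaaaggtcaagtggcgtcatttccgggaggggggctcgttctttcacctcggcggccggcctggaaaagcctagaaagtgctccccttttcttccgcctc
Hspa5 (chr2:34771840-34772139, plus strand): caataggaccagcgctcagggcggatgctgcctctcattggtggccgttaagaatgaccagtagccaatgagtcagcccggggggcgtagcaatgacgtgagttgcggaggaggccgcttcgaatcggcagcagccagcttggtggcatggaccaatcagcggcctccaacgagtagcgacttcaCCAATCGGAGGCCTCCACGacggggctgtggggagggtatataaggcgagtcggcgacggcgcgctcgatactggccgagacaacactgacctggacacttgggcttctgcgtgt
Hsp90b1 (chr10:86705395-86705694, minus strand): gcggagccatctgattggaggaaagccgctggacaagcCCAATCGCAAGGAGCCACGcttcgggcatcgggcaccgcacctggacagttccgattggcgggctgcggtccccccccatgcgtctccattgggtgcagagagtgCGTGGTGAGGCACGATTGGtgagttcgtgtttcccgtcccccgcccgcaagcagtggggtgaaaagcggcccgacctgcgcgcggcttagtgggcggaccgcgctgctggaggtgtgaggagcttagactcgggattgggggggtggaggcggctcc
The windows of Hspa1a and Hspa1b are identical at 296 of 300 bases (98.7%) and hold the same element, which starts 104 bases before the annotated start. In Hspe1 the overlapping matches merge into 1 run that starts 89 bases before the start. Hsph1 has a match that starts 33 bases before the start and a 3-unit run after it. Hsp90b1 holds 2 matches to the endoplasmic reticulum element, the one nearer to the start on the opposite strand. A match describes letters and not a bound site, and these libraries hold no measure of binding.

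The libraries held 1511 to 7603 cells, 6195292 to 20289960 UMIs (molecular barcodes that count captured transcripts) and medians of 2431 to 4366 UMIs per cell. Levels are CPM, the UMIs of a gene in the whole library scaled by the library's total; a 3′ tag counts a transcript once whatever its length. Ratios are log2 ratios of CPM, and their exact 95% intervals speak for counting error alone. Each group is 1 library, so no test was possible and no difference has a replicate check. Each library enters 2 of the 4 comparisons, so the comparisons are not independent of each other. Tcf7 itself stood at 14.6 CPM in TCRγδ Tcf7KO, 45.7 in TCRγδ Tcf7WT, 107 in TCRβ Tcf7KO and 148 in TCRβ Tcf7WT. It was lower in Tcf7KO of each sort but not at 0, with log2 ratios of -1.64 in TCRγδ and -0.47 in TCRβ. A 3′ tag can lie outside the deleted part of a gene. Whether that accounts for the remaining UMIs, and how complete the deletion was, was not tested. T cell markers (CD3 chains, Cd8a, receptor constant genes) summed to 10905 to 12738 CPM. Of B cell markers 2 of 4 were listed and summed to at most 38.1 CPM, and of stromal markers 2 of 3, at most 19.5 CPM; of myeloid markers 2 of 5 were listed, of which Fcer1g, also expressed by intraepithelial T cells, held nearly all UMIs. Epithelial markers, with 13 of 15 listed in all libraries, summed to 2265 CPM in TCRγδ Tcf7KO, 817 in TCRγδ Tcf7WT, 378 in TCRβ Tcf7KO and 420 in TCRβ Tcf7WT. Cells with at least 3 of these markers and 10 of their UMIs numbered 4 to 20 per library and held 6.19% of all UMIs in TCRγδ Tcf7KO, against 0.609% to 1.65% in the others, so results are also given without them. From 6 to 20 cell barcodes per library also occurred in another library.

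Members together made up 1.76% of UMIs in TCRγδ Tcf7KO, 1.94% in TCRγδ Tcf7WT, 2.30% in TCRβ Tcf7KO and 2.17% in TCRβ Tcf7WT. The level was uneven among them: the 5 highest members of a library held 51.9% to 57.7% of its member UMIs, and 39 to 43 members reached 50 CPM. Cytosolic HSP90 and the stress-inducible HSP70 pair led in all 4 libraries, while 8 to 10 members stood under 10 CPM.

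**Figure D1:**
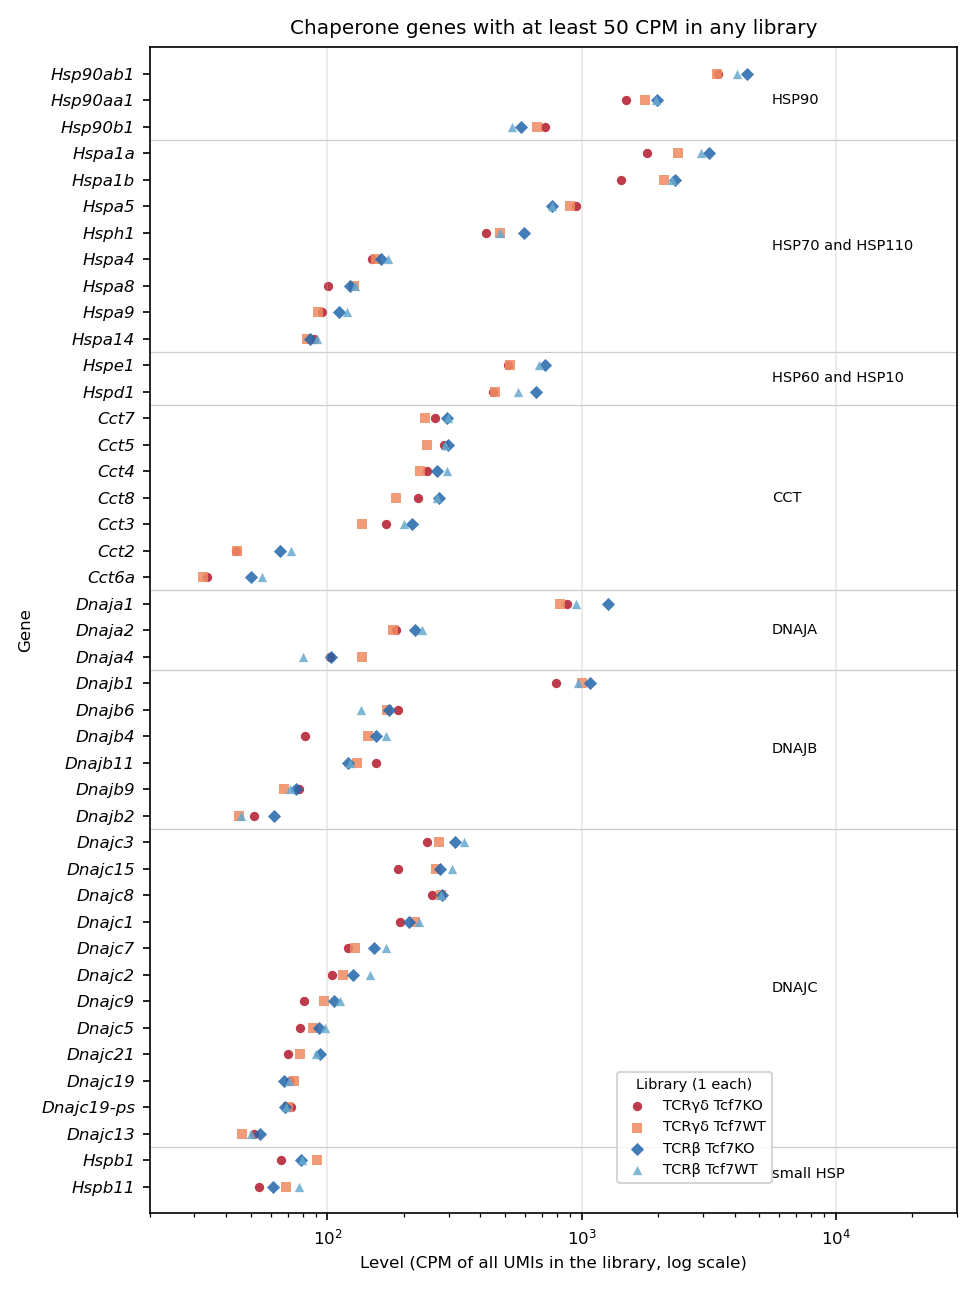
Levels of the members with at least 50 CPM in any library, in CPM on a log axis, by family; each symbol is 1 library. Hsp90ab1 is the highest member in all 4 libraries, and symbols of 1 gene lie close together compared with the span between genes.

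Among HSP90 genes, Hsp90ab1, the constitutive cytosolic form that stabilises kinases and steroid receptors, stood at 3452 CPM in TCRγδ Tcf7KO, 3421 in TCRγδ Tcf7WT, 4497 in TCRβ Tcf7KO and 4103 in TCRβ Tcf7WT. It ranked between 10 and 19 among all genes of a library, and both TCRβ libraries were above both TCRγδ libraries. Hsp90aa1, the stress-inducible cytosolic form, had 1503 CPM in Tcf7KO against 1770.0 CPM in Tcf7WT in the TCRγδ sort, and 1989 CPM in Tcf7KO against 1956 CPM in Tcf7WT in the TCRβ sort. It was lowest in TCRγδ Tcf7KO; 45.4% of the 50-base words in the last 400 bases of its transcripts also occur in other annotated genes, so reads may be shared with these. Hsp90b1 (GRP94), the form of the endoplasmic reticulum, had 720.3 CPM in TCRγδ Tcf7KO, 669 in TCRγδ Tcf7WT, 577 in TCRβ Tcf7KO and 531 in TCRβ Tcf7WT. Its order was the reverse of the cytosolic forms, with both TCRγδ libraries above both TCRβ libraries.

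Of the HSP70 genes, the stress-inducible pair dominated. Hspa1a stood at 1807 CPM in TCRγδ Tcf7KO, 2394 in TCRγδ Tcf7WT, 3162 in TCRβ Tcf7KO and 2946 in TCRβ Tcf7WT. Hspa1b stood at 1430.4 CPM in TCRγδ Tcf7KO, 2108 in TCRγδ Tcf7WT, 2326 in TCRβ Tcf7KO and 2266 in TCRβ Tcf7WT. Both were lowest in TCRγδ Tcf7KO, and Hspa1a had 1.14 to 1.36 times the UMIs of Hspa1b in each library. The last 400 bases of their transcripts share no 50-base word, although their promoters are nearly identical. Hspa5 (BiP), the HSP70 of the endoplasmic reticulum, had 954 CPM in Tcf7KO against 902 CPM in Tcf7WT in the TCRγδ sort, and 765 CPM in Tcf7KO against 768 CPM in Tcf7WT in the TCRβ sort, higher in both TCRγδ libraries. Hsph1 (HSP105), an HSP110 exchange factor, stood at 420.3 CPM in TCRγδ Tcf7KO, 476 in TCRγδ Tcf7WT, 592 in TCRβ Tcf7KO and 476 in TCRβ Tcf7WT, highest in TCRβ Tcf7KO.

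Hspa8, the constitutive HSC70, had only 101 CPM in TCRγδ Tcf7KO, 128 in TCRγδ Tcf7WT, 123 in TCRβ Tcf7KO and 128 in TCRβ Tcf7WT, and 66.5% of its 3′ words recur in other annotated genes such as Gm15459, so its level is uncertain. Hspa4, another HSP110 protein, had 150.5 CPM in TCRγδ Tcf7KO, 155 in TCRγδ Tcf7WT, 163 in TCRβ Tcf7KO and 173 in TCRβ Tcf7WT. Hspa9 (mortalin), which pulls proteins into mitochondria, had 95.3 CPM in Tcf7KO against 91.5 CPM in Tcf7WT in the TCRγδ sort, and 111 CPM in Tcf7KO against 119 CPM in Tcf7WT in the TCRβ sort. Hspa14, a ribosome-associated HSP70, had 88.5 CPM in TCRγδ Tcf7KO, 83.3 in TCRγδ Tcf7WT, 85.6 in TCRβ Tcf7KO and 91.1 in TCRβ Tcf7WT. The last 3 genes spanned less than 1.5-fold over the 4 libraries. Hspa2, known from male germ cells, had 39.8 CPM in Tcf7KO against 47.3 CPM in Tcf7WT in the TCRγδ sort, and 25.5 CPM in Tcf7KO against 25.8 CPM in Tcf7WT in the TCRβ sort, so both TCRγδ libraries were above both TCRβ libraries. Hspa1l, another HSP70 gene of the same cluster, had 3.48 CPM in TCRγδ Tcf7KO, 5.97 in TCRγδ Tcf7WT, 4.79 in TCRβ Tcf7KO and 3.89 in TCRβ Tcf7WT. Hspa13 and Hspa4l made up the rest, at 30.7 to 42.0 CPM.

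Mitochondrial Hspd1 (HSP60) stood at 448 CPM in TCRγδ Tcf7KO, 456 in TCRγδ Tcf7WT, 662 in TCRβ Tcf7KO and 561 in TCRβ Tcf7WT. Its lid Hspe1 (HSP10) stood at 515 CPM in TCRγδ Tcf7KO, 523 in TCRγδ Tcf7WT, 721 in TCRβ Tcf7KO and 679 in TCRβ Tcf7WT. Both were higher in each TCRβ library than in either TCRγδ library, and Hspd1 had 0.826 to 0.917 UMIs per UMI of Hspe1. Pseudogenes of both share words with them (33.5% for Hspd1 and 29.9% for Hspe1).

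CCT is a double ring of different subunits that folds actin and tubulin. Cct5 had 289 CPM in Tcf7KO against 248 CPM in Tcf7WT in the TCRγδ sort, and 298 CPM in Tcf7KO against 290.4 CPM in Tcf7WT in the TCRβ sort. Cct7 had 265 CPM in Tcf7KO against 243 CPM in Tcf7WT in the TCRγδ sort, and 296 CPM in Tcf7KO against 299 CPM in Tcf7WT in the TCRβ sort. Cct4 had 247 CPM in Tcf7KO against 231 CPM in Tcf7WT in the TCRγδ sort, and 269 CPM in Tcf7KO against 296 CPM in Tcf7WT in the TCRβ sort. In each of these the lowest library was TCRγδ Tcf7WT. Cct8 stood at 227 CPM in TCRγδ Tcf7KO, 186 in TCRγδ Tcf7WT, 275 in TCRβ Tcf7KO and 269.5 in TCRβ Tcf7WT. Cct3 stood at 169 CPM in TCRγδ Tcf7KO, 137 in TCRγδ Tcf7WT, 216 in TCRβ Tcf7KO and 200.0 in TCRβ Tcf7WT. Cct2 stood at 43.8 CPM in TCRγδ Tcf7KO, 44.2 in TCRγδ Tcf7WT, 65.4 in TCRβ Tcf7KO and 72.2 in TCRβ Tcf7WT, and for all 3 both TCRγδ libraries were below both TCRβ libraries. Cct6a had 33.5 CPM in Tcf7KO against 32.4 CPM in Tcf7WT in the TCRγδ sort, and 50.2 CPM in Tcf7KO against 55.1 CPM in Tcf7WT in the TCRβ sort, with the same order. Cct6b, a testis form of the subunit, had 1.6 to 2.9 CPM and too few UMIs to compare. Subunits of 1 ring therefore differed in UMI level by far more than libraries did.

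J-domain proteins hand substrates to HSP70. Dnaja1 stood at 873 CPM in TCRγδ Tcf7KO, 824 in TCRγδ Tcf7WT, 1274 in TCRβ Tcf7KO and 949 in TCRβ Tcf7WT, highest in TCRβ Tcf7KO. Of its 3′ words, 27.2% recur in other annotated genes such as Gm15542, so reads may be shared with these. Dnajb1 (HSP40), the main stress-inducible partner of HSP70, stood at 797 CPM in TCRγδ Tcf7KO, 1008 in TCRγδ Tcf7WT, 1077 in TCRβ Tcf7KO and 964 in TCRβ Tcf7WT, lowest in TCRγδ Tcf7KO. Dnajb4, a close relative, had 81.7 CPM in Tcf7KO against 145 CPM in Tcf7WT in the TCRγδ sort, and 155 CPM in Tcf7KO against 171 CPM in Tcf7WT in the TCRβ sort. TCRγδ Tcf7KO stood apart from the other 3 libraries for Dnajb4. Dnaja2, a constitutive relative of Dnaja1, had 187 CPM in TCRγδ Tcf7KO, 182 in TCRγδ Tcf7WT, 221 in TCRβ Tcf7KO and 235 in TCRβ Tcf7WT. Dnaja4 had 102 CPM in Tcf7KO against 137 CPM in Tcf7WT in the TCRγδ sort, and 103 CPM in Tcf7KO against 80.2 CPM in Tcf7WT in the TCRβ sort, so the genotypes were ordered oppositely in the 2 sorts. Dnajb6, which holds back protein aggregation, had 189 CPM in TCRγδ Tcf7KO, 171 in TCRγδ Tcf7WT, 175 in TCRβ Tcf7KO and 136 in TCRβ Tcf7WT, lowest in TCRβ Tcf7WT. Other annotated genes hold 17.9% of its 3′ words.

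J-domain proteins of the endoplasmic reticulum assist Hspa5. Dnajb11 (ERdj3) had 155 CPM in TCRγδ Tcf7KO, 131 in TCRγδ Tcf7WT, 121 in TCRβ Tcf7KO and 123 in TCRβ Tcf7WT. Dnajb9 (ERdj4) had 77.4 CPM in TCRγδ Tcf7KO, 67.3 in TCRγδ Tcf7WT, 75.6 in TCRβ Tcf7KO and 71.3 in TCRβ Tcf7WT. Both were highest in TCRγδ Tcf7KO, by a small margin for Dnajb9. Dnajc3, which also inhibits the kinase of the unfolded protein response, had 247 CPM in Tcf7KO against 276 CPM in Tcf7WT in the TCRγδ sort, and 317 CPM in Tcf7KO against 345 CPM in Tcf7WT in the TCRβ sort. Dnajc1 (ERdj1) had 193 CPM in Tcf7KO against 222 CPM in Tcf7WT in the TCRγδ sort, and 209.7 CPM in Tcf7KO against 230.3 CPM in Tcf7WT in the TCRβ sort. These 2 genes were, in contrast, lowest in TCRγδ Tcf7KO. Dnajb2, best known from neurons, had 51.5 CPM in TCRγδ Tcf7KO, 44.9 in TCRγδ Tcf7WT, 61.9 in TCRβ Tcf7KO and 45.7 in TCRβ Tcf7WT. Dnajb13, known from cilia and sperm tails, had 2.92 CPM in TCRγδ Tcf7KO, 5.49 in TCRγδ Tcf7WT, 4.41 in TCRβ Tcf7KO and 5.03 in TCRβ Tcf7WT. The other DNAJA and DNAJB genes (Dnaja3, Dnajb5, Dnajb12 and Dnajb14) had 2.0 to 38.4 CPM.

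DNAJC genes use their J domain in many places. Dnajc15, of the mitochondrial inner membrane, had 189 CPM in Tcf7KO against 267 CPM in Tcf7WT in the TCRγδ sort, and 279 CPM in Tcf7KO against 308 CPM in Tcf7WT in the TCRβ sort, lowest in TCRγδ Tcf7KO. Dnajc8, a splicing protein, had 259 CPM in TCRγδ Tcf7KO, 279.9 in TCRγδ Tcf7WT, 283 in TCRβ Tcf7KO and 281 in TCRβ Tcf7WT. Dnajc7, which links HSP70 and HSP90, had 121 CPM in TCRγδ Tcf7KO, 129 in TCRγδ Tcf7WT, 153 in TCRβ Tcf7KO and 170.3 in TCRβ Tcf7WT. The range was narrow for Dnajc8 and wider for Dnajc7, with both TCRβ libraries highest. Dnajc2, a partner of the ribosome, had 104 CPM in TCRγδ Tcf7KO, 116 in TCRγδ Tcf7WT, 127 in TCRβ Tcf7KO and 148 in TCRβ Tcf7WT. Dnajc9, a histone chaperone, had 81.3 CPM in TCRγδ Tcf7KO, 97.3 in TCRγδ Tcf7WT, 106 in TCRβ Tcf7KO and 112 in TCRβ Tcf7WT. Dnajc5, a synaptic and secretory vesicle protein, had 78.1 CPM in TCRγδ Tcf7KO, 87.8 in TCRγδ Tcf7WT, 93.1 in TCRβ Tcf7KO and 98.3 in TCRβ Tcf7WT. All 3 were lowest in TCRγδ Tcf7KO. Dnajc21, which matures the large ribosomal subunit, had 70.1 CPM in Tcf7KO against 77.8 CPM in Tcf7WT in the TCRγδ sort, and 93.2 CPM in Tcf7KO against 90.2 CPM in Tcf7WT in the TCRβ sort. Dnajc13, of endosomes, had 51.4 CPM in Tcf7KO against 46.3 CPM in Tcf7WT in the TCRγδ sort, and 54.2 CPM in Tcf7KO against 50.2 CPM in Tcf7WT in the TCRβ sort. Dnajc19, of the mitochondrial import motor, had 71.5 CPM in TCRγδ Tcf7KO, 74.2 in TCRγδ Tcf7WT, 67.6 in TCRβ Tcf7KO and 70.5 in TCRβ Tcf7WT, and its pseudogene Dnajc19-ps had 72.1 CPM in TCRγδ Tcf7KO, 70.2 in TCRγδ Tcf7WT, 68.2 in TCRβ Tcf7KO and 68.7 in TCRβ Tcf7WT. Dnajc19 and Dnajc19-ps were nearly equal in every library, and 64.6% of the pseudogene's 3′ words occur in Dnajc19, so their counts cannot be told apart with confidence. Dnajc6 (auxilin), which strips clathrin from vesicles, had 8.49 CPM in Tcf7KO against 14.2 CPM in Tcf7WT in the TCRγδ sort, and 6.10 CPM in Tcf7KO against 5.17 CPM in Tcf7WT in the TCRβ sort. Dnajc28 had 0.557 CPM in TCRγδ Tcf7KO, 1.45 in TCRγδ Tcf7WT, 2.01 in TCRβ Tcf7KO and 3.15 in TCRβ Tcf7WT. The remaining 11 DNAJC genes had 1.9 to 43.4 CPM.

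Hspb1 (HSP27), which holds unfolded proteins without ATP, had 65.6 CPM in Tcf7KO against 91.0 CPM in Tcf7WT in the TCRγδ sort, and 78.5 CPM in Tcf7KO against 79.8 CPM in Tcf7WT in the TCRβ sort. Hspb11, better known as an intraflagellar transport protein, had 53.9 CPM in Tcf7KO against 68.6 CPM in Tcf7WT in the TCRγδ sort, and 61.0 CPM in Tcf7KO against 77.1 CPM in Tcf7WT in the TCRβ sort. Both were lowest in TCRγδ Tcf7KO. For Hspb1, 34.0% of the 3′ words recur in another annotated gene, Hsp25-ps1. Hspb6, Hspbp1 (an exchange factor of HSP70) and Hspbap1 had 3.4 to 37.7 CPM.

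Within the TCRγδ sort, stress-inducible members were lower in Tcf7KO than in Tcf7WT. Of 62 members with at least 100 UMIs over both libraries, 0 were at least 1.5-fold higher, against 4.56% of all such genes, and 2 were at least 1.5-fold lower (Dnajb4 and Dnajc6), against 3.41% of all genes. At a limit of 5/4-fold, 1 member was higher, 1.61%, against 10.1% of genes, and 13 were lower, 20.97%, against 12.8% of genes. The count of lower members was near the background at 1.5-fold and above it at 5/4-fold, and the counts of higher members were below it. The median ratio was -0.03 over members and -0.03 over all genes. Of the 11 stress-inducible genes, 10 were below 0 and only Dnaja1 above (8 below with TMM or DESeq2 scaling, where Hspd1 and Hspe1 also turned positive), with a median of -0.34, and 6 of them (54.5%) were at least 5/4-fold lower. Hspa8, on the list though constitutive and of uncertain level, is included in both counts. The list was chosen with earlier results of these data known, so its counts are a description only. The 11 genes summed to 8040.5 CPM in Tcf7KO against 9924 CPM in Tcf7WT. Dnajb4 had a log2 ratio of -0.83 (interval -0.98 to -0.68), Hspa1b -0.56 (interval -0.60 to -0.52), Hspb1 -0.47, Hspa1a -0.41 (interval -0.44 to -0.37) and Dnajb1 -0.34 (interval -0.39 to -0.29). Hspb1 rests on few cells, with a UMI in 5.49% of TCRγδ Tcf7KO cells and 6.78% of TCRγδ Tcf7WT cells. In TCRγδ Tcf7KO, 1 cell held 9.98% of its UMIs. Dnajc6, with few UMIs, had -0.74 (interval -1.24 to -0.25). Of the CCT subunits, 6 of 7 were above 0 (all 7 with TMM or DESeq2 scaling), where 4051 of 9211 of all genes were, but 0 of 7 were at least 5/4-fold higher. They had a median of 0.13 and the highest ratios in Cct3 (0.30) and Cct8 (0.29). Hspa5 (0.08), Hsp90b1 (0.11) and Dnajb11 (0.25) were slightly higher. Dnajc15 (-0.50) was lower.

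The inducible genes were also set beside other measures that differed between these libraries. Without epithelial-marker cells, which had lower Hspa1a in CPM than the other cells of every library, the list median was -0.32 and Hspa1a -0.38 (interval -0.41 to -0.34). Cells with a Gzma UMI, a cytotoxic granule gene, made up 87.8% of TCRγδ Tcf7KO and 61.4% of TCRγδ Tcf7WT. Among cells with Gzma the Hspa1a ratio was -0.33 (interval -0.37 to -0.29) and among cells without it -0.34 (interval -0.42 to -0.26). The Dnajb4 ratio was -0.85 (interval -1.03 to -0.67) among cells with Gzma and -0.37 (interval -0.71 to -0.04) among cells without it. Both genes were thus below 0 in both classes, Dnajb4 by less in cells without Gzma. Immediate-early genes, which the handling of cells also induces, did not share 1 direction. The 15 genes of that list summed to 10852 CPM in Tcf7KO against 13336 CPM in Tcf7WT, and 8 of 13 were below 0, where 5160 of 9211 of all genes were. Fosb (-0.68), Fos (-0.67), Jun (-0.61), Jund (-0.34) and Klf6 (-0.34) were lower, while Junb (0.26), Egr1 (0.42), Ier2 (0.23) and Atf3 (0.17) were higher. At 5/4-fold, 5 of 13 were lower, 38.5% against 12.8% of genes, and 1 was higher, 7.69% against 10.1% of genes. Without epithelial-marker cells 10 of 13 were below 0, where 5445 of 9211 of all genes were. At 5/4-fold, 6 of the 13 were then lower and 0 higher, where 1395 and 622 of 9211 of all genes were. Egr1 (-0.36) and Atf3 (-0.22) were then lower too, Ier2 (0.07) was near 0 and Junb (0.30) stayed higher. The part of the immediate-early genes in the result was not tested. Nor was that of the higher depth per cell in Tcf7KO (median 4366 against 3188 UMIs).

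**Figure D2:**
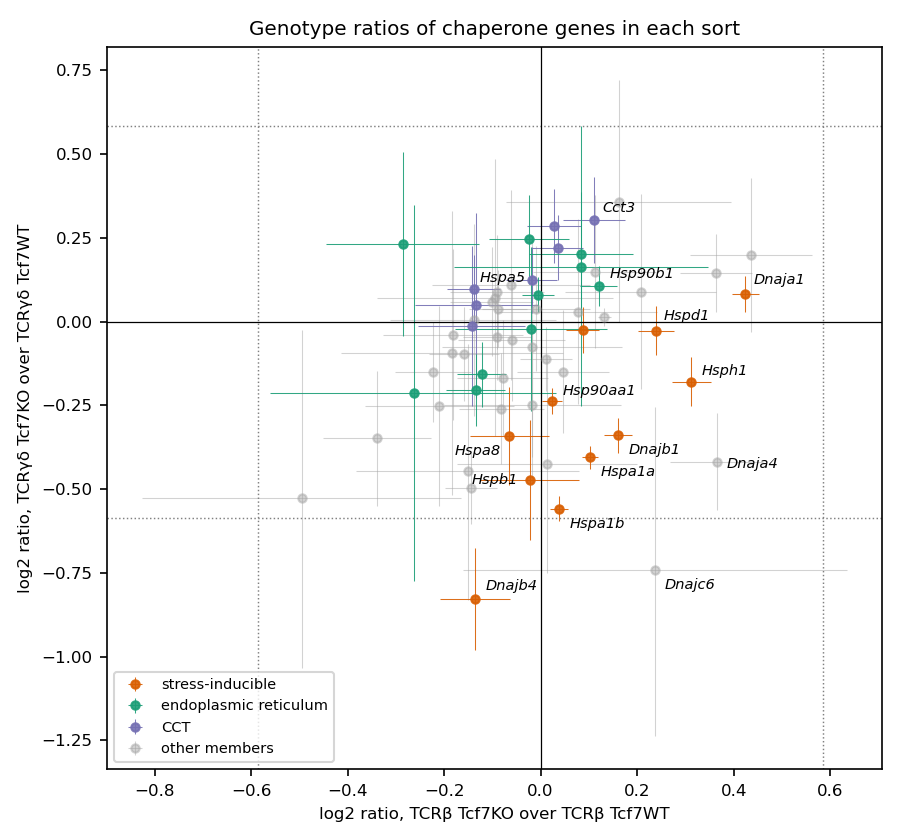
Each point is a member with at least 100 UMIs over both libraries in each sort, placed by its log2 ratio of Tcf7KO over Tcf7WT in TCRβ (x axis) and TCRγδ (y axis); bars are 95% counting intervals and dotted lines mark 1.5-fold. Most stress-inducible genes lie below 0 on the y axis, and Dnajb4 passes the dotted line.

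Within the TCRβ sort, few members differed in size between Tcf7KO and Tcf7WT, and their number was near or below that among all genes. Of 67 members, 0 were at least 1.5-fold higher, against 1.67% of all genes, and 1 was at least 1.5-fold lower, Dnajc28, where 2.05% of genes were; its log2 ratio was -0.65 (interval -1.27 to -0.04), from 37 UMIs in Tcf7KO and 64 in Tcf7WT. At 5/4-fold, 4 were higher, 5.97% against 5.47% of genes, and 3 were lower, 4.48% against 9.31% of genes. The medians were -0.02 for members and -0.07 for all genes. The 4 higher genes, all with a J domain, were Dnajb2 (0.44), Dnaja1 (0.42), Dnaja4 (0.36) and Dnajb6 (0.36), and the 3 lower were Dnajc28, Hspbap1 and Hspb11 (-0.34). Other J-domain genes lay below 0, such as Dnaja2 (-0.09), Dnaja3 (-0.21), Dnajb4 (-0.14) and Dnajb12 (-0.26), so these genes had no common direction. Hsph1 (0.31) and Hspd1 (0.24) were also higher. Of the inducible list, 8 of 11 were above 0 (10 with TMM and 9 with DESeq2 scaling), with a median of 0.09 and sums of 12159.8 CPM in Tcf7KO against 11176 CPM in Tcf7WT. Dnajb4, Hspa8 and Hspb1 were the 3 below 0. Among cells with a Gzma UMI, 32.5% of TCRβ Tcf7KO and 9.94% of TCRβ Tcf7WT, Hspa1a was 0.70 (interval 0.65 to 0.75), while among cells without it the ratio was 0.08 (interval 0.06 to 0.10). The TCRβ Tcf7WT cells with Gzma had 1851 CPM of Hspa1a, against 3093 CPM in the cells of that library without Gzma. CCT subunits had no common direction, with 3 of 7 above 0 (4 with TMM or DESeq2 scaling) and a median of -0.02. DNAJC genes were below 0 in 18 of 25 cases in TCRβ and 16 of 23 in TCRγδ, where 6965 of 10708 and 5160 of 9211 of all genes were.

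Between the sorts, 45 of 65 members were lower in TCRγδ among Tcf7KO libraries and 44 of 65 among Tcf7WT libraries, where 6131 of 10222 and 6417 of 10268 of all genes were. The endoplasmic reticulum chaperones Hspa5 and Hsp90b1 were higher. Among Tcf7WT libraries, 4 of 65 members were at least 1.5-fold higher in TCRγδ (Dnajc6, Hspa2, Dnaja4 and Hspa1l), against 6.82% of genes, and 2 were at least 1.5-fold lower (Cct6a and Cct2), against 6.81%. At 5/4-fold, 7 were higher, 10.8% against 13.1% of genes, and 12 lower, 18.5% against 19.7%. Among Tcf7KO libraries, 1 of 65 was at least 1.5-fold higher (Hspa2), against 8.43% of genes, and 4 were at least 1.5-fold lower (Dnajb4, Hspa1a, Hspa1b and Dnajb13), against 7.15%. At 5/4-fold, 4 were higher, 6.15% against 14.8% of genes, and 21 lower, 32.3% against 20.4%. Some called members rest on few UMIs, Hspa1l at 0.62 (interval 0.01 to 1.20) in Tcf7WT and Dnajb13 at -0.59 (interval -1.36 to 0.11) in Tcf7KO. In Tcf7KO the median was -0.18 for members and -0.07 for all genes. In Tcf7WT it was -0.13 for members and -0.09 for all genes.

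All 7 CCT subunits with enough UMIs were lower in TCRγδ in both genotypes, except that Cct5 turned positive in Tcf7KO under TMM or DESeq2 scaling. Their median log2 ratio was -0.27 in Tcf7KO and -0.53 in Tcf7WT, and the sum of all 8 was 1277 CPM in TCRγδ against 1470.0 CPM in TCRβ for Tcf7KO, and 1125 CPM in TCRγδ against 1485 CPM in TCRβ for Tcf7WT. Cct6a had -0.58 (interval -0.79 to -0.38) in Tcf7KO and -0.76 (interval -0.99 to -0.55) in Tcf7WT. Cct5 was nearest to 0, at -0.04 (interval -0.12 to 0.03) in Tcf7KO. In cells with neither Gzma nor epithelial markers the summed CCT ratio was -0.09 (interval -0.18 to 0.00) for Tcf7KO and -0.30 (interval -0.35 to -0.24) for Tcf7WT. Over all cells, epithelial-marker cells kept, it was -0.20 (interval -0.24 to -0.17) for Tcf7KO and -0.40 (interval -0.44 to -0.36) for Tcf7WT. These values therefore differ in both filters.

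Hsp90b1 was higher in TCRγδ by 0.32 (interval 0.27 to 0.37) in Tcf7KO and 0.33 (interval 0.28 to 0.39) in Tcf7WT, and Hspa5 by 0.32 (interval 0.28 to 0.36) in Tcf7KO and 0.23 (interval 0.19 to 0.28) in Tcf7WT, on the log2 scale. Both have the endoplasmic reticulum element printed above. Dnajc3, which also has it, was lower, at -0.36 in Tcf7KO and -0.32 in Tcf7WT, so the 10 endoplasmic reticulum members had no common direction. Of the 10, 7 were above 0 in Tcf7KO and 5 in Tcf7WT (6 with TMM or DESeq2 scaling), with medians of 0.27 in Tcf7KO and 0.02 in Tcf7WT. Without epithelial-marker cells the Tcf7KO median was 0.16, and Hspa5 had 0.31 (interval 0.27 to 0.35) in Tcf7KO and 0.23 (interval 0.19 to 0.28) in Tcf7WT. Epithelial-marker cells had more Hspa5 than other cells in every library, by log2 ratios of 0.24 in TCRγδ Tcf7KO, 0.21 in TCRγδ Tcf7WT, 0.89 in TCRβ Tcf7KO and 0.30 in TCRβ Tcf7WT. In cells with neither Gzma nor epithelial markers the Hspa5 ratio was 0.42 (interval 0.31 to 0.53) in Tcf7KO and 0.19 (interval 0.12 to 0.25) in Tcf7WT. With Gzma it was 0.21 (interval 0.15 to 0.26) in Tcf7KO and 0.14 (interval 0.06 to 0.22) in Tcf7WT, so it was above 0 in each class.

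**Figure D3:**
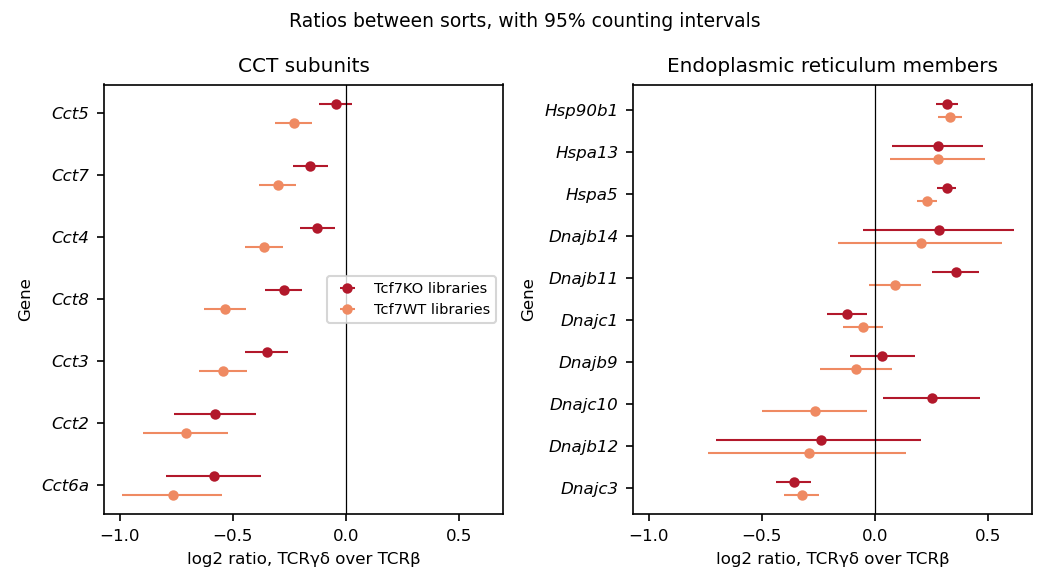
Log2 ratios of TCRγδ over TCRβ (x axis) for the CCT subunits (left panel) and the endoplasmic reticulum members (right panel), with the Tcf7KO pair of libraries above the Tcf7WT pair; bars are 95% counting intervals. CCT points lie below 0 (Cct5 in Tcf7KO only just, and above 0 under TMM or DESeq2 scaling), while Hsp90b1 and Hspa5 lie above 0 in both genotypes.

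The stress-inducible genes were lower in TCRγδ among Tcf7KO libraries, while among Tcf7WT libraries their ratios were near those of all genes. All 11 were lower in the Tcf7KO pair, 9 of them (81.8%) at least 5/4-fold, with a median of -0.49, sums of 8040.5 CPM in TCRγδ against 12159.8 CPM in TCRβ, and Hspa1a at -0.81 (interval -0.83 to -0.78). Among Tcf7WT libraries 9 of 11 were lower (7 with TMM or DESeq2 scaling or without epithelial-marker cells), 1 of them (9.09%) at least 5/4-fold. Their median was -0.14, beside -0.09 for all genes, and Hspa1a had -0.30 (interval -0.33 to -0.27). In cells with Gzma 3 of 11 were lower in Tcf7WT, and the Hspa1a ratio turned to 0.32 (interval 0.27 to 0.38). The difference between genotypes in these ratios was not tested, and the list was chosen with earlier results of these data known. Mitochondrial Hspd1 was lower in TCRγδ in both genotypes, at -0.56 in Tcf7KO and -0.30 in Tcf7WT, and so was Hspe1, at -0.49 in Tcf7KO and -0.38 in Tcf7WT. Of 8 mitochondrial members, 6 were below 0 in each genotype (5 in Tcf7WT with TMM or DESeq2 scaling), with medians of -0.28 in Tcf7KO and -0.25 in Tcf7WT. Among all genes, 6131 of 10222 were below 0 in Tcf7KO and 6417 of 10268 in Tcf7WT, with medians of -0.07 and -0.09. Dnaja4 was -0.01 (interval -0.14 to 0.11) in Tcf7KO and 0.77 (interval 0.65 to 0.89) in Tcf7WT. Hspa2 was 0.64 (interval 0.43 to 0.86) in Tcf7KO and 0.88 (interval 0.66 to 1.08) in Tcf7WT.

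Cells differed widely in Hspa1a within a library. With each cell thinned to 1624 UMIs, leaving out 28 to 759 shallower cells per library, the mean was 3.10 in TCRγδ Tcf7KO, 3.97 in TCRγδ Tcf7WT, 5.54 in TCRβ Tcf7KO and 4.99 in TCRβ Tcf7WT. The share of cells with no Hspa1a UMI was 60.6% in TCRγδ Tcf7KO, 40.7% in TCRγδ Tcf7WT, 41.5% in TCRβ Tcf7KO and 32.9% in TCRβ Tcf7WT. The 10% of cells with most Hspa1a held 60.1% in TCRγδ Tcf7KO, 43.5% in TCRγδ Tcf7WT, 49.2% in TCRβ Tcf7KO and 43.8% in TCRβ Tcf7WT of its UMIs. In TCRγδ Tcf7KO more cells had none and fewer cells held most of it, while TCRβ Tcf7KO had both more empty cells than TCRβ Tcf7WT and a higher mean. The variance of the counts over their mean was 12.6 in TCRγδ Tcf7KO, 8.01 in TCRγδ Tcf7WT, 14.1 in TCRβ Tcf7KO and 9.93 in TCRβ Tcf7WT, against 1.38 to 1.67 for Hspa5. Unthinned, 47.3% of cells had a Hspa1a UMI in TCRγδ Tcf7KO, 64.4% in TCRγδ Tcf7WT, 64.6% in TCRβ Tcf7KO and 72.0% in TCRβ Tcf7WT. At the thinned depth 39.4% of all cells had one in TCRγδ Tcf7KO, 59.3% in TCRγδ Tcf7WT, 58.5% in TCRβ Tcf7KO and 67.1% in TCRβ Tcf7WT, and 11 of 20 thinned epithelial-marker cells had one in TCRγδ Tcf7KO, 3 of 11 in TCRγδ Tcf7WT, 2 of 4 in TCRβ Tcf7KO and 9 of 10 in TCRβ Tcf7WT. No cell type that lacks Hspa1a served as a background for these shares.

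**Figure D4:**
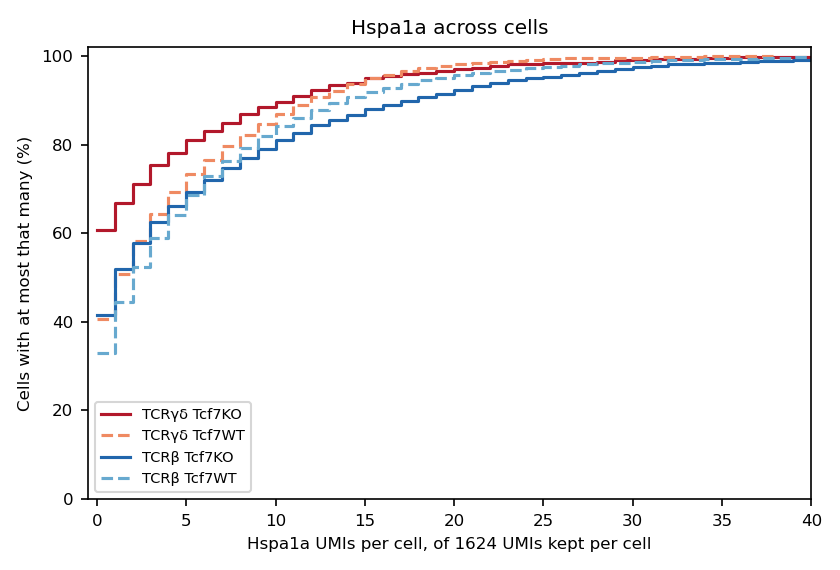
Share of thinned cells (y axis, %) with at most the number of Hspa1a UMIs on the x axis, up to 40, per library; solid lines are Tcf7KO and dashed lines Tcf7WT. At 0 UMIs the line of TCRγδ Tcf7KO starts at 60.6% and that of TCRβ Tcf7WT at 32.9%.

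Within a library, Hspa1a varied together with its inducible relatives to different degrees. Spearman's rho over thinned cells, as a description of 1483 to 6844 cells that share a library, was 0.72 in TCRγδ Tcf7KO, 0.58 in TCRγδ Tcf7WT, 0.69 in TCRβ Tcf7KO and 0.56 in TCRβ Tcf7WT for Hspa1a with Hspa1b. With Dnajb1 it was 0.52 in TCRγδ Tcf7KO, 0.32 in TCRγδ Tcf7WT, 0.42 in TCRβ Tcf7KO and 0.29 in TCRβ Tcf7WT. With Hsp90aa1 it was 0.51 in TCRγδ Tcf7KO, 0.29 in TCRγδ Tcf7WT, 0.47 in TCRβ Tcf7KO and 0.30 in TCRβ Tcf7WT. It was lower with Hsph1, at 0.43 in TCRγδ Tcf7KO, 0.19 in TCRγδ Tcf7WT, 0.36 in TCRβ Tcf7KO and 0.21 in TCRβ Tcf7WT, and lowest of these relatives with Dnaja1, at 0.35 in TCRγδ Tcf7KO, 0.13 in TCRγδ Tcf7WT, 0.28 in TCRβ Tcf7KO and 0.17 in TCRβ Tcf7WT. Both Tcf7KO libraries had the higher values of their sort in each of these 5 pairs. With Hsp90ab1, the constitutive form, rho was 0.45 in TCRγδ Tcf7KO, 0.27 in TCRγδ Tcf7WT, 0.41 in TCRβ Tcf7KO and 0.25 in TCRβ Tcf7WT. These values were above those with Hsph1 and Dnaja1 in every library, so the covariation was not limited to inducible genes. With Jun, a gene of the immediate-early list, rho was 0.40 in TCRγδ Tcf7KO, 0.26 in TCRγδ Tcf7WT, 0.38 in TCRβ Tcf7KO and 0.30 in TCRβ Tcf7WT. With Hspa5 it lay between -0.00 and 0.05.

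Cells that carry at least 2 of 10 cell cycle markers had a different chaperone profile from other cells of the library. They numbered 52 in TCRγδ Tcf7KO, 52 in TCRγδ Tcf7WT, 121 in TCRβ Tcf7KO and 116 in TCRβ Tcf7WT, epithelial-marker cells included. The levels and ratios that follow leave epithelial-marker cells out on both sides. Dnajc9, the histone chaperone, stood at 305 CPM in cycling against 71.4 CPM in other cells of TCRγδ Tcf7KO, and at 386 CPM in cycling against 104 CPM in other cells of TCRβ Tcf7WT, and its log2 ratio was 2.10 in TCRγδ Tcf7KO, 1.49 in TCRγδ Tcf7WT, 1.54 in TCRβ Tcf7KO and 1.90 in TCRβ Tcf7WT. Summed CCT was higher in cycling cells of every library, with log2 ratios of 0.62 in TCRγδ Tcf7KO, 0.47 in TCRγδ Tcf7WT, 0.55 in TCRβ Tcf7KO and 0.37 in TCRβ Tcf7WT. Hspa1a was lower in them, with -0.78 in TCRγδ Tcf7KO, -0.55 in TCRγδ Tcf7WT, -1.06 in TCRβ Tcf7KO and -1.13 in TCRβ Tcf7WT. Dnajb1 was lower as well, with -1.14 in TCRγδ Tcf7KO, -0.63 in TCRγδ Tcf7WT, -1.15 in TCRβ Tcf7KO and -1.02 in TCRβ Tcf7WT. Hspa5 differed little, from 0.01 to 0.11. Dnajc9 and CCT on the one hand and Hspa1a and Dnajb1 on the other thus stood on opposite sides of 0 in all 4 libraries. Cycling cells were deeper, with medians of 5160 to 8950 UMIs against 2420 to 4336 UMIs in other cells, epithelial-marker cells included. The part of depth was not tested.

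**Figure D5:**
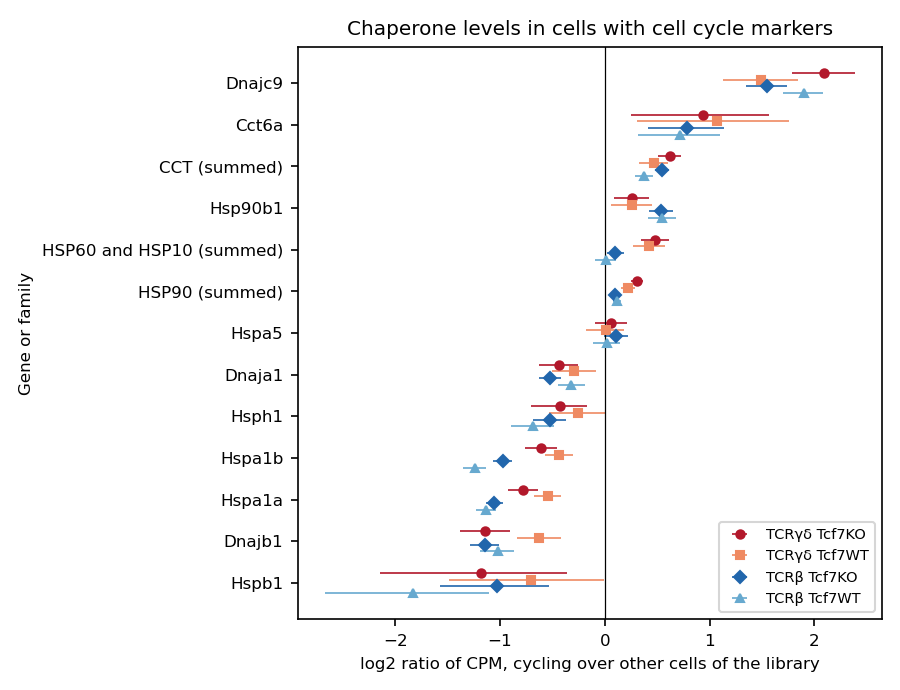
Log2 ratio of CPM in cycling over other cells of the same library (x axis) for single genes and summed families; symbols are libraries and bars 95% counting intervals. Dnajc9 and CCT lie above 0 in all 4 libraries, and Hspa1a, Hspa1b, Dnajb1 and Hspb1 below 0.

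Genes that work beside the members were followed in 3 lists. Of 29 listed co-chaperones and heat shock factors, 27 had enough UMIs in the TCRγδ genotype comparison. Of these, 16 were above 0, where 4051 of 9211 of all genes were. At least 1.5-fold lower was 1, Bag3, an inducible HSP70 co-chaperone, against 3.41% of all genes. At 5/4-fold, 3 were higher (Ahsa1, Fkbp4 and St13), 11.1% against 10.1% of genes. The 3 lower were Bag3, Hsf2 and Ptges3, 11.1% against 12.8% of genes. Bag3 stood at 41.5 CPM in TCRγδ Tcf7KO, 67 in TCRγδ Tcf7WT, 49.8 in TCRβ Tcf7KO and 50.2 in TCRβ Tcf7WT. St13, which bridges HSP70 and HSP90, had 253 CPM in Tcf7KO against 190.0 CPM in Tcf7WT in the TCRγδ sort, and 266 CPM in Tcf7KO against 174 CPM in Tcf7WT in the TCRβ sort. St13 was higher in Tcf7KO of both sorts, and in TCRβ it was at least 1.5-fold higher. Fkbp5, an HSP90 partner, had 62.8 CPM in Tcf7KO against 67 CPM in Tcf7WT in the TCRγδ sort, and 50.6 CPM in Tcf7KO against 45.0 CPM in Tcf7WT in the TCRβ sort, and Bag5 had 29.1 CPM in Tcf7KO against 28.4 CPM in Tcf7WT in the TCRγδ sort, and 37.0 CPM in Tcf7KO against 41.4 CPM in Tcf7WT in the TCRβ sort. Genes of the unfolded protein response were mostly higher in TCRγδ, 18 of 19 in Tcf7KO and 13 of 19 in Tcf7WT. Among all genes, 4091 of 10222 were higher in Tcf7KO and 3851 of 10268 in Tcf7WT. The list summed to 2341 CPM in TCRγδ against 1977 CPM in TCRβ for Tcf7KO. For Tcf7WT it summed to 2265 CPM in TCRγδ against 1963 CPM in TCRβ. This list also holds the member Dnajb9. Sdf2l1, a partner of Hspa5, had 153 CPM in TCRγδ Tcf7KO, 142 in TCRγδ Tcf7WT, 102 in TCRβ Tcf7KO and 92.4 in TCRβ Tcf7WT. The stress sensor Ern1 (IRE1) had a log2 ratio of TCRγδ over TCRβ of 0.93 in Tcf7KO and 1.22 in Tcf7WT, Eif2ak3 (PERK) 0.42 in Tcf7KO and 0.66 in Tcf7WT, and Atf6 0.44 in Tcf7KO and 0.59 in Tcf7WT. Among immediate-early genes Fosb had 270.2 CPM in Tcf7KO against 433 CPM in Tcf7WT in the TCRγδ sort, and 219 CPM in Tcf7KO against 267 CPM in Tcf7WT in the TCRβ sort. The ratio of TCRγδ over TCRβ was 1.05 in Tcf7KO and 0.08 in Tcf7WT for Egr1, -0.98 in Tcf7KO and -0.71 in Tcf7WT for Nr4a1, and 0.56 in Tcf7KO and 0.77 in Tcf7WT for Atf3. With epithelial-marker cells left out, the Tcf7KO ratio was 0.16 for Egr1, -1.09 for Nr4a1 and 0.13 for Atf3. In Tcf7WT it was then 0.07 for Egr1, -0.70 for Nr4a1 and 0.86 for Atf3. These genes had no common order between sorts.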

How the data were processed

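Single-cell 3′ libraries (1 per group, 4 in all) came from a droplet kit, as the labels' protocols describe. What the authors deposited are whole-number UMI counts for each gene symbol in each cell. Seurat 3.0.0 and the builds GRCm38 and mm10 are named in the submitters' processing notes; the aligner and the rule by which genes were listed are not given in the sources used here.

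Counts were added over cells within each library and scaled to CPM; the text gives log2 ratios of CPM with exact 95% intervals conditional on both counts. A gene enters a comparison if listed in all 4 libraries with at least 100 UMIs over both. A size of 1.5-fold was called, with 1.25-fold (written 5/4-fold) as a second limit, and the share of all genes called is printed beside the members' count. No test was made, since each group is 1 library. The ratio and interval code was tested on simulated data. Cells were not used as replicates. Levels, and ratios with an interval, in cells with or without Gzma leave out epithelial-marker cells. Members at 50 CPM or more in any library, members past 1.5-fold and the inducible list are named. Per list, 4 non-members are named by the largest absolute ratio, among those with at least 100 UMIs in each sort. That minimum left out Bag2, whose ratio of TCRγδ over TCRβ was -1.53 in Tcf7KO and -1.05 in Tcf7WT. Bag2 had 23 UMIs in TCRγδ Tcf7KO and 30 in TCRγδ Tcf7WT. Members and lists were chosen with earlier results of these data known.

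Cells were thinned to 1624 UMIs, the 10th percentile of the library with the lowest median. Scrublet (scanpy 1.11.5) marked 29 cells in TCRγδ Tcf7KO and 0 or 1 in each other library, where it did not work, so this alternative in effect removed doublets from 1 library alone. Other scalings tried were DESeq2 1.42.0 size factors and TMM from edgeR 4.0.16, beside other cell filters, limits and minimums. Promoters are RefSeq GRCm38.p6, and words of 50 bases were matched between GENCODE M21 transcripts. Symbols that match the rule but are listed in fewer than 4 libraries (7) were left out.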

Additional observations from a re-analysis of the deposited data

Results flagged for a closer look

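Dnaja4 had opposite genotype ratios in the 2 sorts, with log2 ratios of Tcf7KO over Tcf7WT of -0.42 (interval -0.56 to -0.27) in TCRγδ and 0.36 (interval 0.27 to 0.46) in TCRβ, a difference of -0.78. In TCRγδ cells with Gzma it was -0.60 (interval -0.76 to -0.43) and in those without 0.06 (interval -0.30 to 0.41). Hspa1b had -0.56 (interval -0.60 to -0.52) in TCRγδ and 0.04 (interval 0.02 to 0.06) in TCRβ, a difference of -0.60. With 1 library per group neither difference was tested. Signal was also found for symbols that match the rule but are listed in some libraries only: Dnajc22 had 11 UMIs in TCRγδ Tcf7KO, Dnajc27 had 32 UMIs in TCRβ Tcf7WT and Hspg2, the gene of a matrix proteoglycan and not a chaperone, had 8 UMIs in TCRγδ Tcf7KO.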

How the results depend on the processing

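Of 172 values under alternatives for the counts and medians of members, 131 kept within 1.5 times the count or within the order-statistic interval of the median; of 134 for single members past 1.5-fold, 116 kept within their counting interval and 0 changed sign. For TCRβ genotype the 1 member at least 1.5-fold lower became 0 with TMM scaling, DESeq2 size factors, no epithelial-marker cells, no cycling cells, cells without Gzma, thinned cells, thinned cells without epithelial-marker cells (chosen after seeing the data), a minimum of 500 UMIs or a 2-fold limit. This member, Dnajc28, kept a ratio of -0.58 with either scaling, just inside the limit, and the cell filters and the higher minimum left it under the UMI minimum. The count of higher members became 2 among cells with Gzma, and 4 higher and 3 lower at 5/4-fold. The median became 0.047 with TMM, 0.045 with DESeq2 and 0.048 in cells with Gzma. For TCRγδ genotype the count of lower members became 1 in cells without Gzma, in thinned cells with or without epithelial-marker cells and with at least 500 UMIs, 4 in cells with Gzma and with at least 20 UMIs (1 higher), 13 at 5/4-fold (1 higher) and 0 at 2-fold. For Tcf7WT between sorts, higher members became 2 in cells with or without Gzma and with at least 500 UMIs, 7 at 5/4-fold and 1 at 2-fold; lower members became 4 with each cell weighing the same, 1 in cells with Gzma, 12 at 5/4-fold and 0 at 2-fold. For Tcf7KO between sorts, lower members became 8 in cells without Gzma, 7 in thinned cells, 21 at 5/4-fold and 0 at 2-fold; higher members became 0 in cells with Gzma and at 2-fold, and 4 at 5/4-fold. A limit or minimum changes counts by its own construction; for the rest the cause was not tested. Except at 5/4-fold, the share of all genes called under each alternative is not printed here. Whether these counts differ from such a background was therefore not assessed. No paired analysis was possible because each group is 1 library. Depth limits the low members: 7 of 69 had under 100 UMIs in the TCRγδ genotype comparison.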
